A study of Mus musculus with 3 samples.

Results

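The nuclear genes of the mitochondrial respiratory chain and ATP synthase were followed across mouse spleen after SiO2 (the SiO2 sample), mouse spleen after SiO2-3TF-3C (the SiO2-3TF-3C sample) and normal mouse liver. Members were all genes whose mouse symbol begins with Ndufa, Ndufb, Ndufc, Ndufs or Ndufv and a digit, is Sdha, Sdhb, Sdhc or Sdhd, or begins with Uqcr, Cox4 to Cox8 or Atp5. Of the 20658 genes with a named probe, 84 met this rule, 37 in complex I, 4 in complex II, 8 in complex III, 18 in complex IV and 17 in complex V (ATP synthase). The symbols Ndufb1, Ndufb4b and Ndufb4c matched as well but had no named probe, and neither had the 18 matching pseudogenes.

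All samples came from female mice, and each group was measured on 1 single-colour Agilent array. SiO2 is silica, and its name is common to both spleen treatments. The labels do not spell out 3TF-3C. Both spleen groups were collected on day 82, whereas the liver served as positive control and no treatment is given for it. According to the series design 5 samples were pooled per group, with no statement on the liver, and the strain and age of the mice are not given in the sources used here. With 1 array per group no test between groups is possible, so differences are described by their size. Each value is a log2 signal relative to the 75th percentile of its array, so that 0 stands for the signal of a probe at that percentile. The error after ± is the technical error that the scanner software assigns to a log2 difference. It leaves out the spread between animals. Because a probe's brightness depends on its sequence, the signal of a gene is compared only with the same probe on the other arrays.

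The respiratory chain passes electrons from NADH (complex I) and succinate (complex II) through ubiquinone, complex III and cytochrome c to oxygen at complex IV, and complexes I, III and IV pump protons across the inner mitochondrial membrane. ATP synthase lets the protons flow back through its membrane ring and makes ATP in its F1 head. Most subunits are encoded in the nucleus and made in nearly every cell. A few subunits of complex IV have alternative forms known mainly from heart and skeletal muscle, lung or testis, though not all are confined to them. Hepatocytes, the main cells of liver, are rich in mitochondria.

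The tissue labels were set against cell type markers. All 7 hepatocyte markers were well above background in liver and in the SiO2-3TF-3C sample, and 5 of 7 were in the SiO2 sample, where Ttr and Apoa1 were not. In the SiO2-3TF-3C sample 6 of 7 were at least 2-fold lower than in liver, beside 15.9% of all genes. The median log2 difference there was -2.84, and the highest was that of Alb, at -0.19. The summed signal of the 7, in units of the array's 75th percentile, was 0.241 in the SiO2 sample, 105.8 in the SiO2-3TF-3C sample and 322 in liver. The 7 lymphocyte markers were well above background on all 3 arrays, the liver included, with summed signals of 127.6, 90.1 and 52.4 in the same order. Those of the 6 erythroid markers were 17.5, 40.8 and 7.69, and those of the 5 neutrophil markers 53.7, 73.3 and 20.7. The part of these cell types in the differences below was not tested. In a bulk tissue sample, fewer cells of a type and less RNA per cell cannot be told apart.

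Nearly every member had its highest signal in liver. Of the 79 members well above background on all 3 arrays, 76 were highest in liver, 3 in the SiO2 sample and 0 in the SiO2-3TF-3C sample. The exceptions were Cox6a2, Cox7a2l and Ndufa4l2. The order of the 3 arrays was not counted over all genes, but the pairs of arrays were. Liver was above the SiO2 sample in 76 of 80 members, beside 7602 of 17362 genes. The SiO2-3TF-3C sample was below liver in 78 of 79 members, beside 8855 of 17220 genes. In the SiO2-3TF-3C sample 54 of 82 members were below the SiO2 sample, beside 11638 of 17729 genes. With quantile normalization this held for 28 of 80 members. Among the 79 members the lowest signal lay in the SiO2-3TF-3C sample for 50, in the SiO2 sample for 28 and in liver for 1. The remaining 5 members were Ndufa4 and Ndufs5, which had no usable spot on the liver array, Cox8b, which was not well above background in liver, and Cox7b2 and Cox8c, which were not well above background on any array. Cox7b2 and Cox8c, like Cox6b2, are the testis forms of their subunits.

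The first comparison asks how the SiO2-3TF-3C sample differed from the SiO2 sample. Among 82 members compared, 0 were at least 2-fold higher and 0 at least 2-fold lower, beside 5.30% and 1.39% of the 17729 genes measured. With a limit of 1.5-fold, 0 members were higher and 1 was lower (Cox8b), beside 8.69% and 9.48% of all genes. The median log2 difference of the members was -0.04, and that of all genes -0.15, but with normexp background correction the medians were -0.05 and -0.06. In 51 of 82 members the difference was within its technical error, in 8 it was higher and in 23 lower. These counts were not made over all genes, whose quartiles were -0.37 and 0.11. Whether the members differ from all genes in this was thus not tested. The sign of the members' median turned to 0.10 with quantile normalization, 0.04 with scaling to housekeeping genes and 0.09 in the authors' deposited table. Under each of those settings the median of all genes remained below 0 (-0.10, -0.07 and -0.09).

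The second comparison set liver against the SiO2 sample. Of 80 members 24 (30.0%) were at least 2-fold higher in liver, beside 15.4% of 17362 genes, and 0 were at least 2-fold lower, beside 17.0%. At the 1.5-fold limit 56 members (70.0%) were higher and 1 was lower, beside 23.9% and 31.2%. The members' median was 0.72 (1.65-fold), against -0.14 over all genes. Of the 79 members measured on both sides, 73 were higher in liver by more than the technical error, 2 were lower and 4 were within it. The same was not counted over all genes, whose quartiles were -0.75 and 0.54. The count of 24 was 15 of 80 with quantile normalization, 10 of 80 with housekeeping scaling and 8 of 59 in the authors' deposited table. Beside these stood 14.1%, 12.2% and 13.9% of all genes. With housekeeping scaling and in the deposited table the members' share past 2-fold was thus near that of all genes. The distance between the members' median and that of all genes was 0.87 here and 0.57 to 0.88 under the other settings.

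The third comparison set the SiO2-3TF-3C sample against liver. Of 79 members 23 (29.1%) were lower by 2-fold or more in the SiO2-3TF-3C sample, beside 15.9% of 17220 genes, and 0 were at least 2-fold higher, beside 10.7%. At 1.5-fold 61 members (77.2%) were lower and 0 were higher, beside 27.5% and 23.4%. The median was -0.81 (1.75-fold lower), with -0.03 over all genes. The count of 23 was 7 of 79 with quantile normalization, 6 of 79 with housekeeping scaling and 2 of 58 in the authors' deposited table. Beside these stood 13.69%, 11.05% and 13.49% of all genes. Under these settings the members' share past 2-fold was thus below that of all genes, not above it. The members' median minus that of all genes was -0.78 here, and -0.57, -0.76 and -0.53 under those settings. Each pair of comparisons shares an array, so they are not independent of each other.

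**Figure D1:**
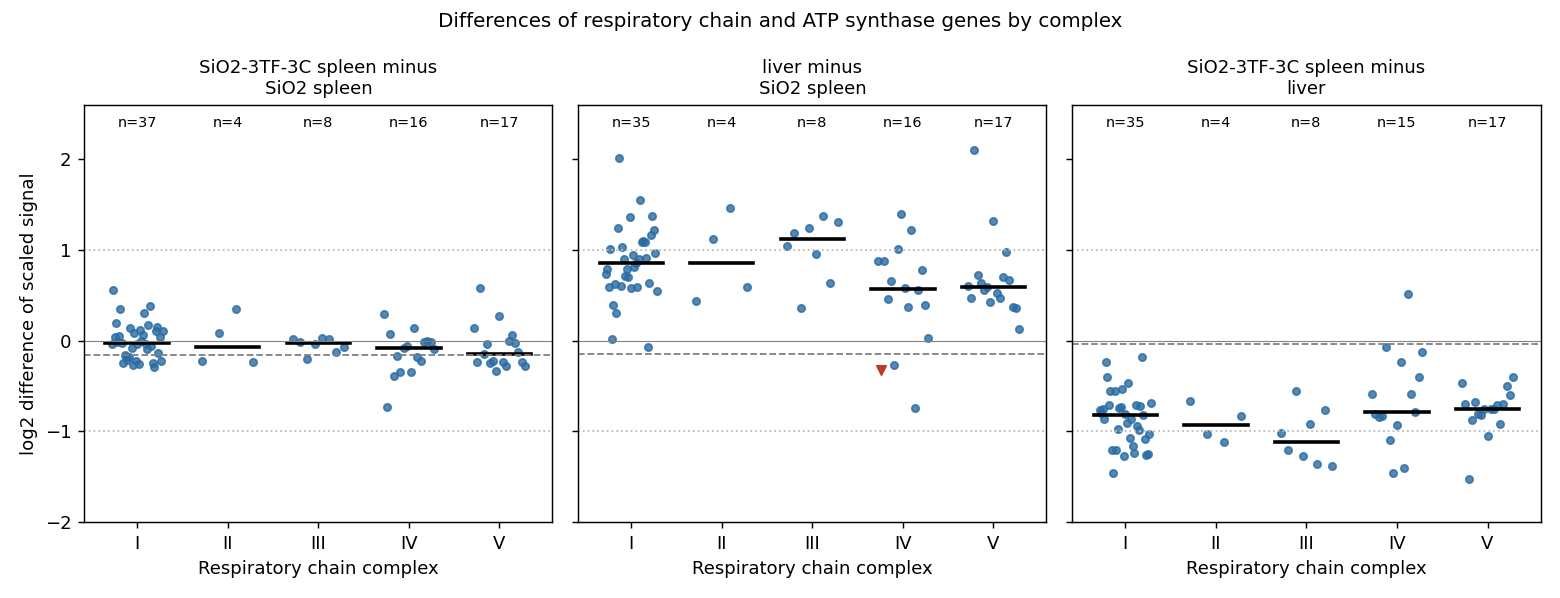
Log2 difference of each member (point) in the 3 comparisons, by complex, with the complex median as a black bar, the median of all genes as a dashed line and 2-fold as dotted lines. The triangle is Cox8b, whose liver value is only a bound. In the first panel all 82 points lie within 2-fold, and in the other panels most lie on the side of higher signal in liver.

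Complex I, the NADH dehydrogenase, had the most members. The 7 nuclear genes of its catalytic core, which carry the flavin and the iron-sulfur clusters, had a median difference between liver and SiO2 sample of 0.97, with a range of 0.55 to 1.25. Ndufv1, the subunit that binds NADH, had signals of 3.13 in the SiO2 sample, 3.17 in the SiO2-3TF-3C sample and 4.38 in liver. The spleen samples were alike, and liver was higher by 1.25 ± 0.20. Ndufs1, the large iron-sulfur subunit, was at 2.14, 2.30 and 2.84 in the same order. The lowest core difference in liver was that of Ndufs8 at 0.55 ± 0.20.

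The 28 accessory subunits of complex I, which support assembly and stability, had a median of 0.86 in liver against the SiO2 sample (27 compared) and of -0.02 between the spleen samples. Ndufa10, an accessory subunit, had the largest difference in the complex, with signals of -0.50, 0.06 and 1.52 in the SiO2 sample, the SiO2-3TF-3C sample and liver. Liver exceeded the SiO2 sample by 2.02 ± 0.20 (4.05-fold) and the SiO2-3TF-3C sample exceeded it by 0.56 ± 0.20 (1.48-fold). Next came Ndufb9, at 3.59, 3.90 and 5.14, with 1.55 in liver and 0.31 in the SiO2-3TF-3C sample. Ndufb6 and Ndufs6 followed in liver with 1.38 and 1.37, while their differences between the spleen samples were 0.12 and 0.10. The second probe of Ndufb6 gave 0.82 in liver and -0.18 between the spleen samples, and the authors' deposited table gave 0.60 in liver. At the other end Ndufb3 had 2.07, 1.86 and 2.09, so that liver and SiO2 sample differed by 0.01, well within the technical error, and by -0.24 with housekeeping scaling. Ndufs4 and Ndufb7 were also close, at 0.30 and 0.39. Between the spleen samples the accessory subunits ran from -0.29 for Ndufs5 to the 0.56 of Ndufa10, with Ndufa3 at 0.35.

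Ndufa4 was first assigned to complex I and is now counted as a subunit of complex IV. Its signals were 3.83 in the SiO2 sample and 3.81 in the SiO2-3TF-3C sample, a difference of -0.02 ± 0.20. With spots kept that the scanner software had marked as uneven or outlying, liver was 1.04 above the SiO2 sample. Ndufa4l2, the hypoxia-inducible relative of Ndufa4, had -1.82, -2.06 and -1.88, and was the only member of the symbols assigned to complex I that was not highest in liver. Its largest difference was -0.24 ± 0.21 between the spleen samples, just above the technical error.

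Complex II, succinate dehydrogenase, also works in the citric acid cycle. Sdha, the flavoprotein that oxidises succinate, had signals of 2.90, 2.68 and 3.34 in the SiO2 sample, the SiO2-3TF-3C sample and liver, and Sdhb, its iron-sulfur partner, had 4.19, 3.95 and 4.78. For both, liver was higher than the SiO2 sample by less than 2-fold (0.44 and 0.59) and the SiO2-3TF-3C sample was lower, at -0.22 and -0.24, slightly over the technical error of 0.20. The second probe of Sdhb differed from this on both sides, with liver 1.04 above the SiO2 sample and 0.10 between the spleen samples. The spleen difference of Sdha was -0.12 with quantile normalization, and that of Sdhb -0.01 in the authors' deposited table. Both are smaller than the technical error. The membrane anchors were further apart, with liver higher by 1.12 for Sdhd and 1.47 for Sdhc. The value of Sdhc rests on the dimmer of its 2 probes, because the liver spot of the brighter one was marked as an outlier. With such spots kept the brighter probe gave 0.51 in liver and -0.17 in the SiO2-3TF-3C sample, against 0.35 there for the dimmer probe.

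Complex III, the ubiquinol-cytochrome c reductase, had the highest median in liver against the SiO2 sample of the 5 complexes, at 1.12, and 5 of its 8 members were at least 2-fold higher, beside 15.4% of all genes. Uqcrfs1, the Rieske iron-sulfur protein, had signals of 3.81, 3.77 and 5.04 in the SiO2 sample, the SiO2-3TF-3C sample and liver. Uqcrc1, a core subunit, had 0.93, 0.96 and 2.31. For these genes the spleen samples differed by -0.04 and 0.02, and liver was higher by 1.24 and 1.38. The small subunit Uqcr11 was 1.31 higher in liver, while Uqcrh, which helps cytochrome c to bind, was higher by 0.36 and Uqcrb by 0.64. Between the spleen samples the brightest probe of each member lay within its technical error, in a range of -0.20 to 0.03. Among the 3 probes of Uqcrb, however, the lowest gave -0.54, and their mean was -0.39.

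Complex IV, cytochrome c oxidase, reduces oxygen. The 10 generally expressed subunits had a median of 0.72 in liver against the SiO2 sample, from 0.39 for Cox5a to 1.22 for Cox6b1, and of -0.05 between the spleen samples. Cox4i1, the general form of the largest nuclear subunit, had 3.84 in the SiO2 sample, 4.13 in the SiO2-3TF-3C sample and 4.72 in liver, so that the SiO2-3TF-3C sample was 0.29 ± 0.20 higher than the SiO2 sample. Cox6c and Cox7c went the other way, at -0.35 and -0.38 between the spleen samples, and were 0.59 and 0.46 higher in liver. The 3 probes of Cox7c disagreed, from -0.39 to 0.04 between the spleen samples and from 0.46 to 1.73 in liver against the SiO2 sample, the widest range among the 21 members with several measured probes. For those 21 the median range between probes was 0.15 between the spleen samples and 0.30 between liver and the SiO2 sample.

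The alternative forms of complex IV subunits followed no common direction. Cox6a2, the heart and skeletal muscle form of subunit VIa, had -1.74 in the SiO2 sample, -1.96 in the SiO2-3TF-3C sample and -2.48 in liver. It was the only member measured on all arrays with its lowest signal in liver, with a difference of -0.74 ± 0.21 from the SiO2 sample, while its general counterpart Cox6a1 was 0.56 above it. Cox7a1, the muscle form of subunit VIIa, had -3.03, -3.09 and -1.64. It was 1.39 ± 0.21 higher in liver than in the SiO2 sample, and its general counterpart Cox7a2 was 1.01 higher. Cox8b, the muscle form of subunit VIII, was dim, at -5.25 and -5.98 in the SiO2 and SiO2-3TF-3C samples. Its difference of -0.73 ± 0.39 was the largest between the spleen samples but was -0.04 with normexp background correction. In liver it was not well above background. The bound put the SiO2 sample at least 1.25-fold higher, but this log2 difference of -0.32 lay within its technical error of 0.51.

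Markers of striated muscle are given beside these forms. Their summed signal over 8 genes was 0.745 in the SiO2 sample, 0.435 in the SiO2-3TF-3C sample and 0.700 in liver, with 8, 7 and 7 of them well above background. Between the spleen samples 6 of 8 were below 0 and 2 above, beside 11638 of 17729 genes below 0. The median was -0.38, with a range of -2.05 (Myh4) to 0.36 (Tnnt2). At least 2-fold lower were 3 of 8, beside 1.39% of all genes. Between liver and the SiO2 sample 6 of 8 were below 0 as well, with a median of -0.94, beside 9760 of 17362 genes below 0. At least 2-fold lower in liver were 4 of 8, beside 17.0% of all genes. The highest log2 difference between liver and the SiO2 sample was that of Myh6, a myosin of heart muscle, at 2.89. The summed signal of 4 brown adipocyte markers was 0.151 in the SiO2 sample, 0.160 in the SiO2-3TF-3C sample and 0.761 in liver. Of these, Cidea was dim on all arrays and Ucp1 was dim in liver. The part of muscle or brown adipocytes in the values of Cox6a2, Cox7a1 and Cox8b was not tested.

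Cox4i2, the lung and hypoxia form of subunit IV, had -1.30, -1.38 and -1.26, with no difference above its technical error on any side. Cox6b2, the testis form of subunit VIb, had -0.40, -0.26 and -0.03, and liver was 0.37 ± 0.20 higher than the SiO2 sample. Cox7a2l, which helps to join complexes III and IV into supercomplexes, was, with Cox6a2, the member of complex IV highest in the SiO2 sample among those measured on all arrays, with 5.84 there, 5.50 in the SiO2-3TF-3C sample and 5.57 in liver. Both differences from the SiO2 sample, -0.34 and -0.27, were above the technical error of 0.20. Its 3 probes ranged from -0.46 to -0.20 and from -0.62 to -0.27, so that they had the same sign.

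**Figure D2:**
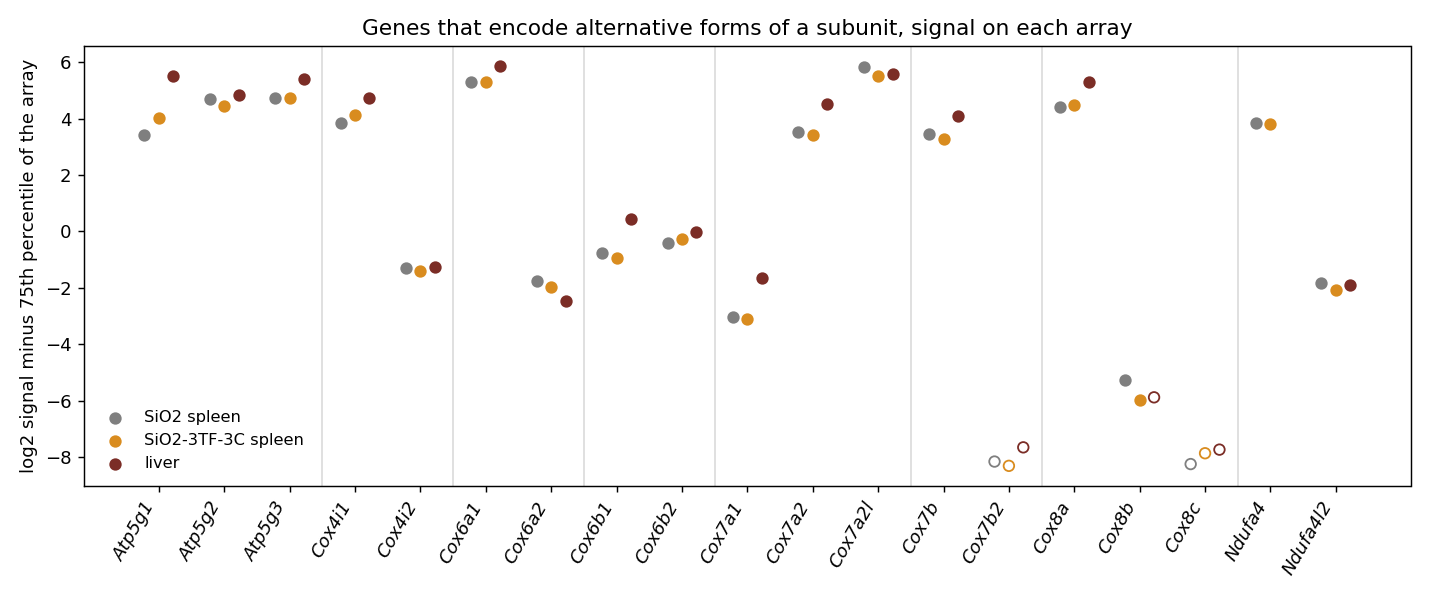
Scaled log2 signal of genes that encode alternative forms of a subunit on the 3 arrays; open circles were not well above background, and vertical lines separate subunits. Cox6a2 is lowest and Cox7a1 highest in liver, Atp5g1 lies well apart on the liver array, and the testis forms Cox7b2 and Cox8c are dim on every array.

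ATP synthase had the lowest median after complex IV for liver against the SiO2 sample, at 0.60, with 2 of 17 members (11.8%) at least 2-fold higher beside 15.4% of all genes, and -0.15 between the spleen samples, equal to the median of all genes to 2 decimals. Atp5a1 and Atp5b, the alpha and beta subunits that form the catalytic F1 head, were 0.60 and 0.37 higher in liver. Their signals were 4.94, 5.07 and 5.53 for Atp5a1 and 5.06, 4.93 and 5.43 for Atp5b, in the order SiO2 sample, SiO2-3TF-3C sample and liver. Atp5d, the delta subunit of the central stalk, was 1.32 higher in liver and 0.27 ± 0.20 higher in the SiO2-3TF-3C sample. The 4 genes of the peripheral stalk (Atp5pb, Atp5h, Atp5j and Atp5o) were within 0.42 to 0.73 in liver. All 4 were below 0 in the SiO2-3TF-3C sample, as were 11638 of 17729 genes. They ran from -0.33 for Atp5j to -0.15 for Atp5pb, although Atp5pb turned to 0.03 with quantile normalization and 0.05 in the authors' deposited table. The other membrane subunits lay between 0.36 (Atp5l) and 0.98 (Atp5md) in liver.

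The genes of the ATP synthase c subunit, which forms the rotating ring, spanned the widest range within ATP synthase in liver. Atp5g1, Atp5g2 and Atp5g3 encode the same mature protein behind different import sequences. Atp5g1 had 3.43 in the SiO2 sample, 4.0 in the SiO2-3TF-3C sample and 5.53 in liver. Liver was higher than the SiO2 sample by 2.10 ± 0.20 (4.28-fold), the largest difference of all members, and the SiO2-3TF-3C sample was higher by 0.58 ± 0.20 (1.49-fold). Atp5g3 had 4.75, 4.72 and 5.41, with liver 0.67 higher and the spleen samples alike. Atp5g2 had 4.71, 4.43 and 4.84, so that liver was 0.12 higher, within the technical error, and the SiO2-3TF-3C sample lower than the SiO2 sample, at -0.28. Its second probe gave -0.28 for liver against the SiO2 sample and housekeeping scaling gave -0.13, so the direction of Atp5g2 in liver is not settled. Atp5g1 and Ndufa10 thus had the largest differences in liver and also the largest positive ones between the spleen samples, and these comparisons share the SiO2 array. Both kept the sign in each setting tried that held them, from 0.47 to 0.76 for Atp5g1 and from 0.54 to 0.65 for Ndufa10 between the spleen samples.

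The 250 bases upstream of the annotated start are printed for the c subunit genes and Ndufa10, since the sister genes differed in liver although their product is the same. They are from RefSeq on the GRCm38.p6 assembly, 5′ to 3′ on the strand of the gene. The positions are chr11:96075632-96075881 on the minus strand for Atp5g1, chr15:102671048-102671297 on the minus strand for Atp5g2, chr2:73911327-73911576 on the minus strand for Atp5g3 and chr1:92473759-92474008 on the minus strand for Ndufa10. Capitals mark a match to the motif of NRF1, a factor known to bind many respiratory chain promoters.
Atp5g1: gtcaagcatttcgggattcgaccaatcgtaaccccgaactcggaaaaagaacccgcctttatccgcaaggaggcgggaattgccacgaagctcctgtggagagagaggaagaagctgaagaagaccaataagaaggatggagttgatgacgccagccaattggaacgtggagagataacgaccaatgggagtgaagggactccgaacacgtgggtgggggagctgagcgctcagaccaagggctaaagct
Atp5g2: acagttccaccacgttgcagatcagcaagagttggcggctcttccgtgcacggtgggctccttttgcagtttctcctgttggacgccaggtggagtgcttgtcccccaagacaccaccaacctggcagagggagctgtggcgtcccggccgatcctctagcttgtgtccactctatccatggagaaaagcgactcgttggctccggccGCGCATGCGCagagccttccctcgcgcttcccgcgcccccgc
Atp5g3: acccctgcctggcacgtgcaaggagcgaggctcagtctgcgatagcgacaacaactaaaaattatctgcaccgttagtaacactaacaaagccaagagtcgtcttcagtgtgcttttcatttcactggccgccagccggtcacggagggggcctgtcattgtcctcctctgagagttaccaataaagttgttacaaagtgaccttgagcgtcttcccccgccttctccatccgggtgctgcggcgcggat
Ndufa10: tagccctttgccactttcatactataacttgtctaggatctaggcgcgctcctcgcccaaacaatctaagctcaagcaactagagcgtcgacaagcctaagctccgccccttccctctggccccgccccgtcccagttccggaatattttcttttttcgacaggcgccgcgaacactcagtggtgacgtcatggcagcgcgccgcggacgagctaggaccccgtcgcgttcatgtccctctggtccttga
The letters searched were GCGC and TGCGC separated by 1 base for NRF1, and CCGGAAG for factors of the ETS family such as GABPA, each on both strands. Their matches can overlap other motifs. Of these 4 windows only that of Atp5g2 held a match, to NRF1. An upstream window was listed for 68 members, of which 13 (19.1%) held the NRF1 letters and 12 (17.6%) the ETS letters in at least 1 window. Over all 27025 genes of the table the shares were 4.23% and 7.83%. These are more than the 20658 genes with a named probe. They were not matched to the members in expression or base composition, so the shares do not show a trait particular to the members. Among members at least 2-fold higher in liver 2 of 20 held the NRF1 letters, and among the other members compared 10 of 45. The ETS letters were held by 4 of 20 and 8 of 45. These are counts of letters and show no binding.

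Other genes of mitochondrial energy metabolism were described by lists. Assembly factors of the complexes had a median of 0.52 in liver against the SiO2 sample. Of 43 compared, 9 were at least 2-fold higher, beside 15.4% of all genes. Between the spleen samples the median was 0.01, with 0 of 44 past 2-fold, beside 5.30% of all genes higher and 1.39% lower. Sco2, a copper chaperone of complex IV, had -0.67, 0.04 and 2.87, a difference of 3.54 in liver. Cyc1, the cytochrome c1 subunit of complex III that the symbol rule leaves out, had 1.91, 2.29 and 3.92, with liver 2.02 higher. Cycs, the mobile cytochrome c of body cells, was 0.47 higher in liver and -0.27 in the SiO2-3TF-3C sample, and the testis form Cyct was dim on all arrays. Etfdh, which feeds electrons from fatty acid oxidation into ubiquinone, was 2.51 higher in liver and 0.39 in the SiO2-3TF-3C sample.

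Fatty acid oxidation genes gave the widest contrast with the members. All 15 were at least 2-fold higher in liver, beside 15.4% of all genes. Their median was 2.09, led by Acaa2 at 3.02 and Hadh at 2.87. Between the spleen samples 0 of 15 passed 2-fold (median 0.29), beside 5.30% of all genes higher and 1.39% lower. With so few of all genes past 2-fold there, a count of 0 does not set a short list apart. Citric acid cycle genes had a median of 0.64 in liver, with 5 of 13 at least 2-fold higher beside the same 15.4%. In the SiO2-3TF-3C sample their median was 0.10, with 0 of 13 past 2-fold. Suclg2, of the GDP-forming succinyl-CoA ligase, had the largest value in both (2.68 and 0.86), whereas citrate synthase (Cs) differed by -0.07 and 0.12. Proteins of the mitochondrial ribosome had a median of 0.41 in liver, with 9 of 76 at least 2-fold higher, a share below the 15.4% of all genes, and of 0.00 between the spleen samples, with 0 of 77. Cytosolic ribosomal proteins had -0.26 in liver and -0.25 in the SiO2-3TF-3C sample. In each 1 of 79 was at least 2-fold lower, beside 17.0% and 1.39% of all genes. With 1 array per group the differences between lists were not tested.

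Among 13 regulators of mitochondrial genes, Ppara, the receptor that drives hepatic fatty acid oxidation, stood apart. Its signals were -4.14 in the SiO2 sample, -0.14 in the SiO2-3TF-3C sample and 4.14 in liver, differences of 4.0 and 8.28 from the SiO2 sample. Ppargc1a, the coactivator of mitochondrial biogenesis, had -3.11, -3.14 and -0.98. The spleen samples were alike, and liver was 2.13 higher. Nrf1 was lower in liver, at -1.06, and within its technical error in the SiO2-3TF-3C sample, at -0.11. Gabpa and Esrra, the latter an orphan receptor that partners Ppargc1a, were at -0.47 and -0.50 in the SiO2-3TF-3C sample and at -0.02 and -0.57 in liver. Tfam, which packages and transcribes mitochondrial DNA, was within its technical error in both, at -0.14 and -0.16.

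**Figure D3:**
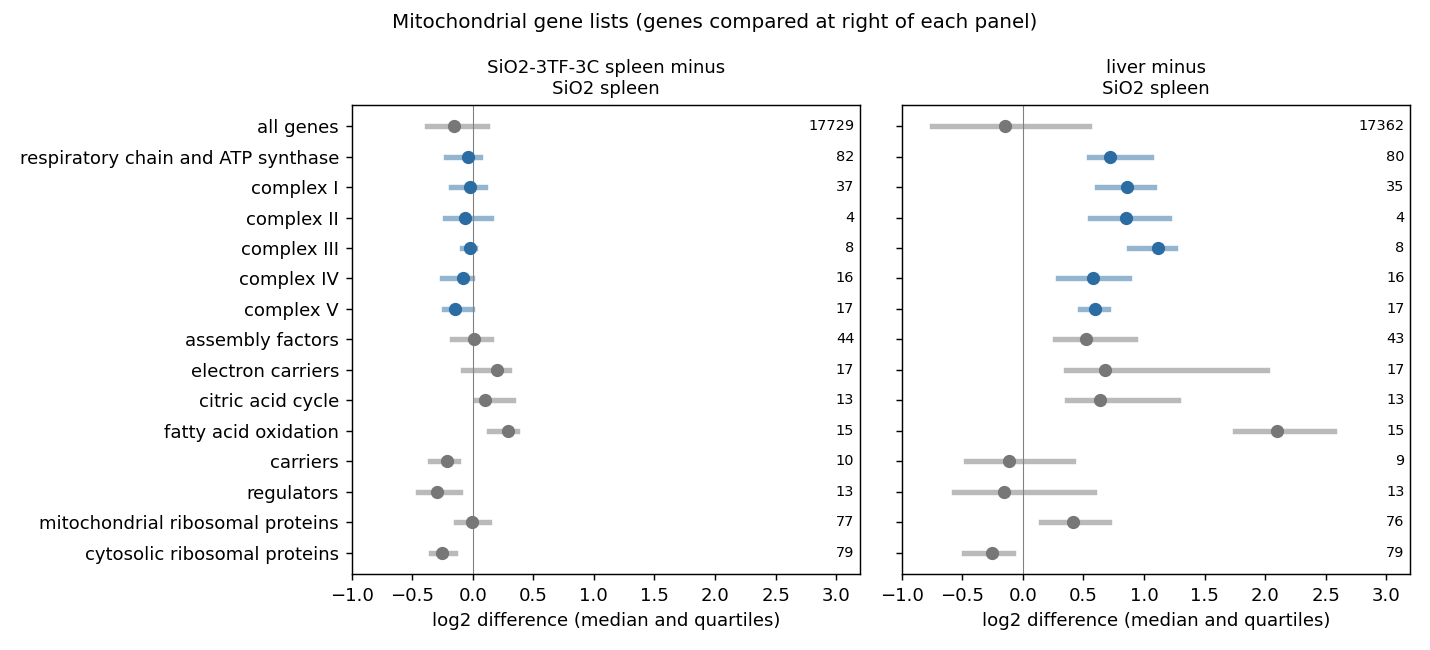
Median log2 difference (point) and quartiles (bar) of mitochondrial and ribosomal gene lists against the SiO2 sample, with the number of genes compared at the right. The members lie near 0 in the SiO2-3TF-3C sample (median -0.04) and at 0.72 in liver, and fatty acid oxidation genes reach 2.09 in liver.

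**Figure D4:**
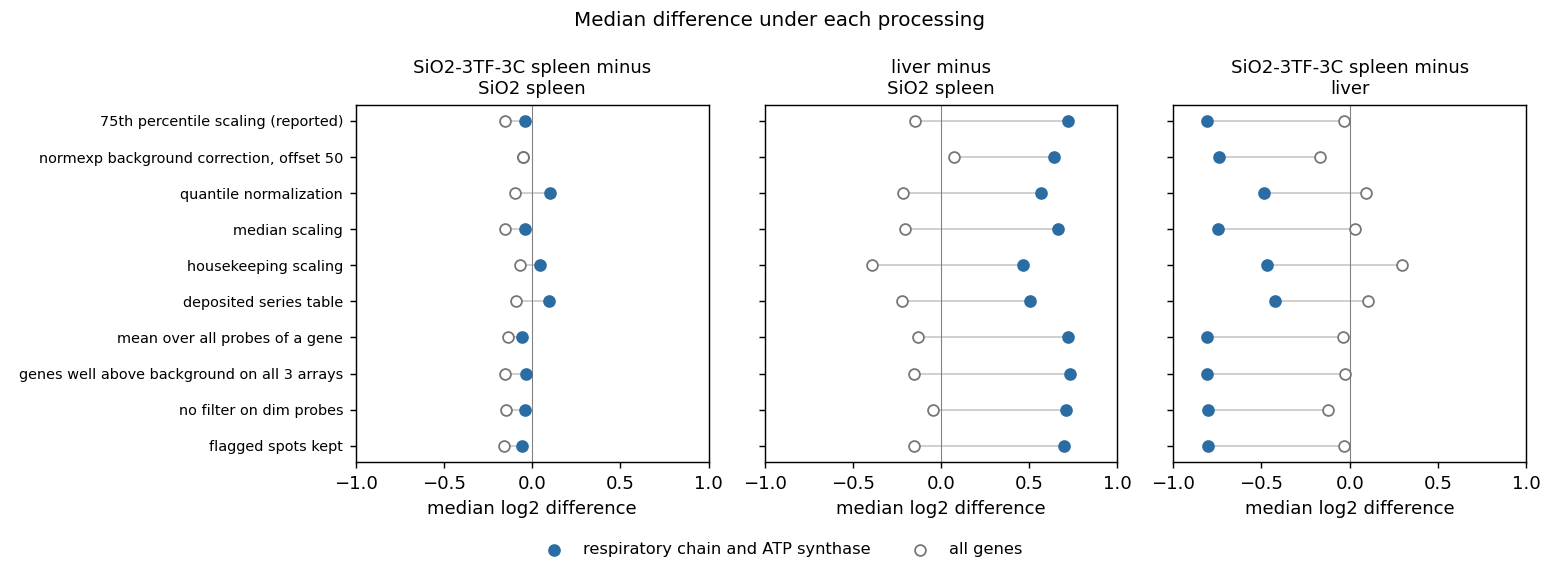
Median log2 difference of the members (filled) and of all genes (open) in the 3 comparisons under each processing. The members' median crosses 0 in the first comparison, and in the other 2 it keeps its direction in every setting drawn, from 0.46 to 0.73 for liver minus SiO2 sample.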

How the data were processed

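Cy3-labelled RNA of 3 tissue samples was hybridised to 1 array each. Per the labels' protocols RNA was made with a kit for blood, and globin messages were depleted. The deposited scanner files hold linear fluorescence intensity, background-subtracted and detrended within each array with Feature Extraction 11.0.1.1 per the file headers (9.1 per the submitters' processing notes), with array design build mm9. The values of the authors' deposited table are log2: each column tracked its own array's log2 signals across probes (r from 0.993 to 0.996), and the column medians were all 5.91. Its normalization and centring are unknown here.

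Flags and well-above-background calls are those of the scanner software. Control spots were left out, as were non-uniform spots and population outliers (182, 283 and 469 of 43020 non-control spots), and no spot was saturated (0 on each array). Of the spots 77.2% to 81.3% were well above background. Log2 signals were averaged per probe and scaled by the 75th percentile of each array. The technical error combines the deposited signal errors of both arrays. Of 39426 probes 69.1% were named through RefSeq accessions (GRCm38.p6 table, names only). The brightest probe with values on all arrays stood for a gene. Near-identical copies can share a probe; 9 members have a listed processed pseudogene. A gene dim on 1 side has a bound against the lowest signal well above background. The 3 arrays lay on 1 slide. Members, lists, roles and the naming rule (any member, in full the isoform groups and the extremes of each complex; from other lists the largest differences and fixed anchors) were chosen with earlier results of these data known. Alternatives covered background, normalization, probe summary, filter, flags and threshold. Work used Python 3.11.15, pandas 2.3.3, R 4.3.3 and limma 3.58.1 (normexp).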

Additional observations from a re-analysis of the deposited data

How the results depend on the processing

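With 1 array per group no replicate could be left out, no paired analysis was possible because no group has replicates, and the slide could not be used as a block because all arrays lay on 1 slide. The scanner files hold no mean signal, so normexp used the median signal. For liver against the SiO2 sample the members' median moved from 0.72 to 0.46 with housekeeping scaling and 0.50 in the authors' deposited table. Its 24 members at least 2-fold higher became 15 with quantile normalization, 10 with housekeeping scaling and 8 in the deposited table. Of all genes 14.1%, 12.2% and 13.9% were at least 2-fold higher under these settings. At 1.5-fold the 24 members became 56. The 0 members at least 2-fold lower became 1 with housekeeping scaling (Cox6a2) and 1 at 1.5-fold. For the SiO2-3TF-3C sample against liver the median of -0.81 became -0.48, -0.47 and -0.42 with quantile normalization, housekeeping scaling and the deposited table. The 23 members at least 2-fold lower became 7, 6 and 2 in the same order, beside 13.69%, 11.05% and 13.49% of all genes. At 1.5-fold the 23 members became 61. Between the spleen samples the 0 members at least 2-fold lower became 1 at 1.5-fold. These settings also moved all genes: with housekeeping scaling the median of all genes in liver against the SiO2 sample was -0.39, and of the genes past 2-fold 32.8% were higher in place of 47.5%; in the third comparison 64.6% were higher in place of 40.4%, and 49.4% and 50.2% with quantile normalization and the deposited table. Between the spleen samples that share was 79.3%, and 93.7% with normexp and 68.1% with no filter on dim probes. Normexp, median scaling, the mean over probes, both filters on dim probes and keeping flagged spots kept the members' medians and 2-fold counts (the counts within 1.5 times). No called member changed sign in any setting run. The depth limit is the signal: Cox7b2 and Cox8c were never well above background and Cox8b barely.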

Other observations

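Carriers of the inner and outer mitochondrial membrane went both ways in liver. Their median against the SiO2 sample was -0.12, with 4 of 9 above 0 and 5 below, beside 7602 of 17362 genes above 0. Slc25a4, the muscle and heart form of the adenine nucleotide translocase, had 3.78 in the SiO2 sample, 3.39 in the SiO2-3TF-3C sample and 2.69 in liver, so that liver was lower, at -1.09 ± 0.20. Slc25a5, the general form, had 3.51, 3.40 and 3.97, and liver was 0.46 higher. The phosphate carrier Slc25a3, which supplies ATP synthase, was 0.70 higher in liver and -0.26 in the SiO2-3TF-3C sample. Ucp2 and Ucp3, relatives of the heat-producing uncoupling protein, were -0.47 and -0.94 in liver, and Ucp1 itself was dim there. Vdac1, of the outer membrane, was 0.42 higher in liver and at -0.54 in the SiO2-3TF-3C sample. Over the list 0 of 9 carriers were at least 2-fold higher in liver and 1 was lower, beside 15.4% and 17.0% of all genes. In a list of 9 such counts do not set the carriers apart from all genes. Between the spleen samples 0 of 10 passed 2-fold, beside 5.30% of all genes higher and 1.39% lower.

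Genes of ubiquinone synthesis had a wide range. Coq8a, a kinase-like protein needed for it, had -1.80, -0.78 and 2.01 in the SiO2 sample, the SiO2-3TF-3C sample and liver. It was 1.03 ± 0.20 higher in the SiO2-3TF-3C sample and 3.82 higher in liver than in the SiO2 sample. Of 17 genes of electron carriers it was the only 1 past 2-fold between the spleen samples, beside 5.30% of all genes at least 2-fold higher. Coq9 was 2.21 higher in liver, and Pdss1, which makes the side chain, was -0.56.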
